A study of Homo sapiens with 12 samples.

Results

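SU-DHL6 is a cell line grown from a diffuse large B-cell lymphoma that resembles germinal-centre B cells. It was profiled on 2 of the 12 arrays of this series and is set here against the 4 arrays of the other B-cell lines, Namalwa, a Burkitt lymphoma line, and SU-DHL4, also a germinal-centre type large-cell lymphoma line. The remaining 6 arrays carried the Hodgkin lines KM-H2, L1236 and L428, at 2 arrays a line, and all 6 lines were grown untreated in the same medium. Expression was read on Affymetrix HG-U133A arrays, on which short probes are grouped into probe sets, each for 1 transcript or several. Values are log2 signals after RMA (robust multi-array average), so a difference of 1 is a 2-fold difference. Of 22215 non-control probe sets, 19065 carried 1 gene symbol, and each of 11963 genes was represented by its brightest probe set over the 12 arrays.

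The comparison rests on 1 SU-DHL6 line, and the duplicates are not stated to be separate cultures. The p-values therefore cover no more than how far duplicate arrays of a line lie apart, possibly for technical reasons, and not how lymphomas of this kind vary. The arrays of both SU-DHL lines were made for this series, whereas Namalwa came from an earlier dataset of the submitters, so the difference from SU-DHL4 is the one within a single dataset. The Hodgkin arrays share the dataset of Namalwa. Where SU-DHL6 is set beside Hodgkin line means below, line and dataset cannot be told apart. The 2 SU-DHL6 arrays were the least alike of any duplicates, with r = 0.981 across probe sets and 465 probe sets (2.09%) over 2-fold apart, while the other lines had 17 to 122 such probe sets. The fit shares 1 spread per probe set among the 6 lines, whereas the pooled SD of duplicates was 0.253 in SU-DHL6 and 0.13 to 0.174 elsewhere. Standard errors and p-values may therefore understate the spread of SU-DHL6. For GAPDH, signal at the 3' end was 0.47 above that at the 5' end on SU-DHL6 replicate 2, and 0.02 above it on replicate 1. For this reason both SU-DHL6 arrays are given for each gene described, other than genes that only mark the ends of a chromosome stretch.

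B-cell lymphomas keep much of the programme of the B cell from which they arose. In the germinal centre, B cells divide and are selected under the control of BCL6, and they later leave it through signals that include NF-kB and IRF4. Vimentin is an intermediate filament protein common in mesenchymal and many blood cells, beta-tubulins build microtubules, and CUX2 is a homeodomain transcription factor best known from neurons of the cerebral cortex. MEF2C and TCF4 are transcription factors of the B lineage, TCF4 being an E protein that binds E-box sequences.

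The 3 genes furthest above both other B-cell lines were TUBB2B, VIM and CUX2. The 250 bases before their annotated starts are shown because no other gene stood as far above the nearer line, and each was read by 1 probe set only. The sequences are RefSeq entries of GRCh38.p14, written 5′ to 3′ on the gene's strand. Capitals mark a CCAAT box (CCAAT) or a GC box (GGGCGG) on either strand.
TUBB2B, chr6:3227654-3227903, minus strand: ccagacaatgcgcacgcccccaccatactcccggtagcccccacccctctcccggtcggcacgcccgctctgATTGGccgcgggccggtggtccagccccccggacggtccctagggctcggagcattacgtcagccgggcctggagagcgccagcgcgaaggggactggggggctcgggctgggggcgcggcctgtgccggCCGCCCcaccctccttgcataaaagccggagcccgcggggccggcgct
VIM, chr10:17227991-17228240, plus strand: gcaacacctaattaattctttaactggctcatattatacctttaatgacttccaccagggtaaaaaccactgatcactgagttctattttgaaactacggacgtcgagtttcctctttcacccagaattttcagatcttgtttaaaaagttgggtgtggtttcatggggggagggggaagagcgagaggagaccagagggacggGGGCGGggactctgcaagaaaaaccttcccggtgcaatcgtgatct
CUX2, chr12:111033915-111034164, plus strand: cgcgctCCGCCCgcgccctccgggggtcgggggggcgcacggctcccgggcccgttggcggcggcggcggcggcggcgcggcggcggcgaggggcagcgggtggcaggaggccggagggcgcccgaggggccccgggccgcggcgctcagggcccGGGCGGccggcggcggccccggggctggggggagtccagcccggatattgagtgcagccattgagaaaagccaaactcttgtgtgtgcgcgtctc

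TUBB2B held 1 CCAAT box and 1 GC box in this window, VIM held 1 GC box, and CUX2 held 2 GC boxes. A TATA box (TATAAA) and an NF-kB motif (GGGANTTCC), searched on both strands, were in none of the 3 windows. The windows differed in composition, with 75.2% G or C for TUBB2B, 46% for VIM and 81.2% for CUX2. GC boxes were present in 42.3% of all 27305 promoters, in 60.6% of 9563 promoters of measured genes, in 62% of 100 promoters of genes higher in SU-DHL6 than in each other line and in 71.7% of 99 promoters of genes lower than in each. The NF-kB motif was in 1.6% of all promoters and 1.9% of those of measured genes. It was in 4 of 100 promoters (4%) of the higher and 2 of 99 (2.02%) of the lower genes. These matches describe letters in a window, and no binding was measured.

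TUBB2B, a beta-tubulin known from developing neurons, gave 10.72 and 10.00 on SU-DHL6 replicates 1 and 2, 5.38 and 5.32 on the Namalwa arrays and 5.29 and 5.28 on the SU-DHL4 arrays. Both SU-DHL6 arrays stood far above the 4 others. Those lay under the lower quartile of their arrays, where signal cannot be told from background and the fold is uncertain. The difference from the mean of both lines was 5.04 ± 0.27 (SE) as measured (limma adjusted p = 4.15e-06), and SU-DHL6 was at least 25.6-fold higher when those arrays were set to their lower quartile. In 53 of the 512 genes called below, every array of the dimmer side lay under that limit. With those values raised to the lower quartile, the sizes of the 53 differences ran from 4.68 down to 0.06, some under the 2-fold minimum. Their sizes as measured are therefore uncertain. Among the Hodgkin lines, TUBB2B had a line mean of 8.89 in KM-H2, 5.58 in L1236 and 5.35 in L428. A further probe set shared by TUBB2A and TUBB2B was higher by 1.03 (adjusted p = 0.0132), at 10.39 and 9.52 on the SU-DHL6 arrays and 8.62 to 9.25 on the others. TUBB2A and TUBB2B are near-identical, so their probe sets may share signal.

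VIM gave 10.96 and 11.70 on the SU-DHL6 arrays, 6.90 and 6.31 on the Namalwa arrays and 6.61 and 6.75 on the SU-DHL4 arrays. The groups did not overlap, and SU-DHL6 was 25.8-fold above the mean of the others (log2 difference 4.69 ± 0.22, adjusted p = 2.2e-06). The Hodgkin lines had still higher line means, 12.62 in KM-H2, 12.02 in L1236 and 13.11 in L428. In VIM, SU-DHL6 thus lay nearer to the Hodgkin lines than to the B-cell lines.

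CUX2 gave 8.61 and 9.41 on the SU-DHL6 arrays, 4.78 and 4.83 on the Namalwa arrays and 5.25 and 4.88 on the SU-DHL4 arrays. Every array outside SU-DHL6 was near background, including the Hodgkin lines at line means of 4.75 to 4.85. The difference was 4.07 ± 0.19 as measured (adjusted p = 1.85e-06), and with the dim arrays set to their lower quartile SU-DHL6 was at least 10-fold higher.

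**Figure D1:**
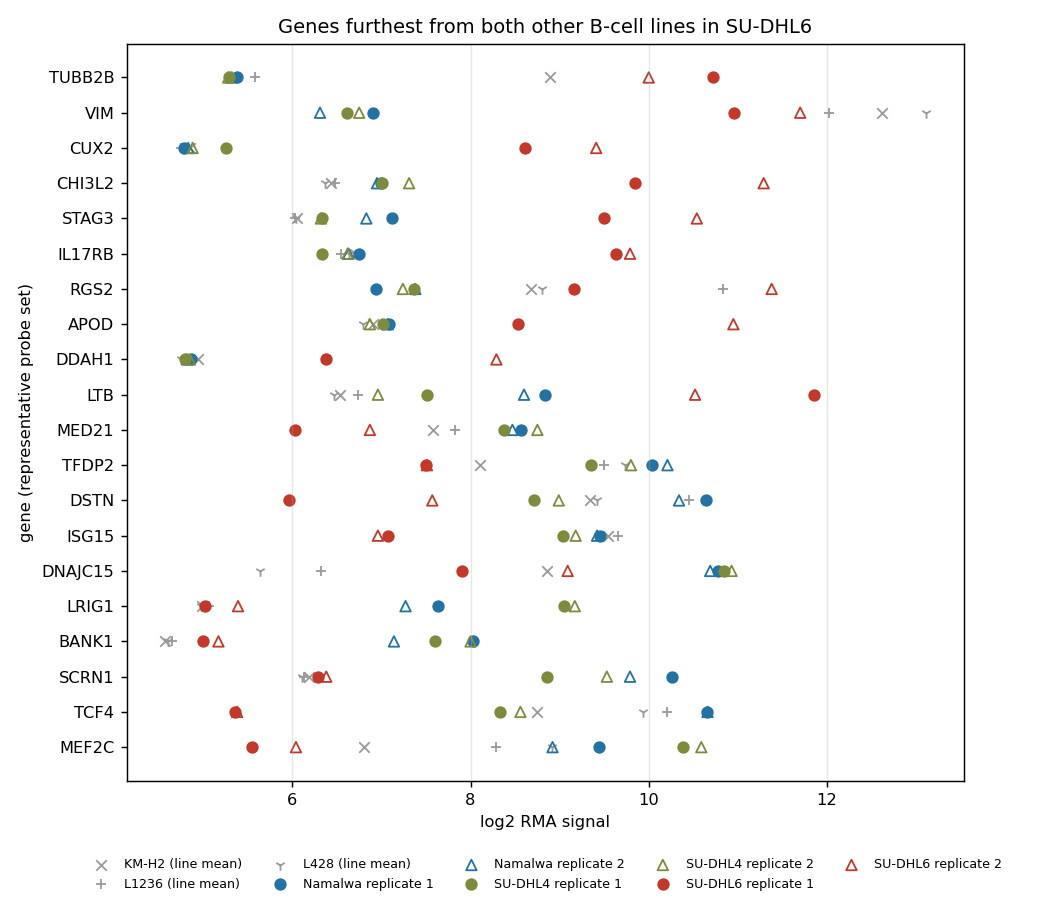
Log2 RMA signal (horizontal axis) of the 10 genes furthest above and the 10 furthest below both other B-cell lines in SU-DHL6, by gene (vertical axis); filled circles and open triangles are replicates 1 and 2, grey signs are means of the Hodgkin lines. The red SU-DHL6 points lie to the right of the blue and green points in the upper 10 genes and to the left in the lower 10, and in VIM the Hodgkin lines lie further right still.

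In all, 231 genes were higher (1.93% of 11963) and 281 lower (2.35%) in SU-DHL6 than the mean of the other lines, where a call needed 2-fold or more and an adjusted p below 0.05. On 451 of these 512 genes, both SU-DHL6 arrays lay beyond all 4 others. Over all genes this held for 3679 of 11963, and the 512 were chosen by the size and p of the same difference. A stricter call asks for the same direction and at least 2-fold against each line, and it was met by 120 higher (1.0%) and 125 lower genes (1.04%). Of the 512 genes, 128 differed by under 1 from Namalwa and 114 by under 1 from SU-DHL4, so nearly as many calls leaned on one line as on the other. The median difference over all genes was 0.06. Each call was recomputed under 14 alternatives in the arrays used, the weighting, the filtering and the scaling, and a call counts as lost where the adjusted p was no longer below 0.05. Just outside the fold limit lay ZSCAN18, at 6.68 and 7.21 on the SU-DHL6 arrays, and NPC2, at 9.49 and 9.44 (0.999 each). Just inside lay IKZF1, at 9.62 and 8.88, and CSRP1, at 7.86 and 7.52 (-1.001 each).

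**Figure D2:**
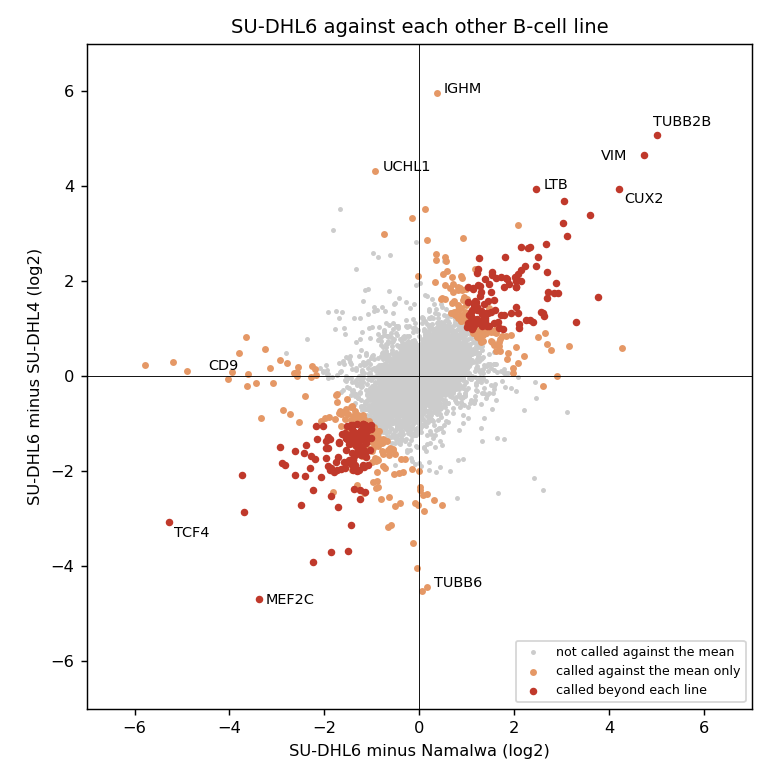
Log2 difference of SU-DHL6 from Namalwa (horizontal axis) and from SU-DHL4 (vertical axis) for 11963 genes; grey genes were not called, orange genes were called against the mean of both lines only and red genes against each line. TUBB2B, VIM and CUX2 stand at the upper right, TCF4 and MEF2C at the lower left, and IGHM, CD9 and TUBB6 lie near an axis, being close to 1 of the lines, while UCHL1 was below Namalwa and far above SU-DHL4.

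The next genes above both lines were CHI3L2, STAG3, IL17RB, RGS2, APOD, DDAH1 and LTB. CHI3L2, a chitinase-like secreted protein, gave 9.85 and 11.29 on the SU-DHL6 arrays and 6.95 to 7.31 on the others (difference 3.50, adjusted p = 7.49e-05). STAG3, a cohesin subunit of meiosis that is also expressed in germinal-centre B cells, gave 9.50 and 10.54 against 6.32 to 7.12 (3.37, adjusted p = 1.27e-05). IL17RB, a receptor for interleukin 25, gave 9.63 and 9.79 against 6.33 to 6.75 (3.13, adjusted p = 4.09e-07). These 3 genes had line means of 6.03 to 6.70 in the Hodgkin lines, so SU-DHL6 was the highest of all 6 lines for each.

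The 2 SU-DHL6 arrays differed widely in some of the genes of this group. RGS2, a regulator of G-protein signalling, gave 9.16 and 11.38 against 6.94 to 7.38 (3.04, adjusted p = 0.0014), with 8.68 to 10.83 in the Hodgkin lines. APOD, a lipid-carrying apolipoprotein, gave 8.53 and 10.95 against 6.87 to 7.09 (2.73, adjusted p = 0.00375). DDAH1, which degrades methylarginines, gave 6.38 and 8.29 against 4.79 to 4.86 (2.50, adjusted p = 0.0016, or 0.068 with dim values raised to a floor). Replicate 2 was the higher array in these 3 genes, by 2.22, 2.42 and 1.91, and replicate 1 was still above every array of the other B-cell lines.

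Among genes lower than in both lines, the transcription factors MEF2C and TCF4 had the largest differences. MEF2C, which acts downstream of the B-cell receptor, gave 5.55 and 6.04 on the SU-DHL6 arrays, 9.44 and 8.92 in Namalwa and 10.39 and 10.59 in SU-DHL4. SU-DHL6 replicate 1 lay under the lower quartile of its array and replicate 2 above it. The difference as measured was -4.04 ± 0.16 (adjusted p = 9.44e-07), and all 3 MEF2C probe sets were called lower, by -1.81 to -4.04. TCF4 gave 5.36 and 5.38 on the SU-DHL6 arrays, 10.65 and 10.66 in Namalwa and 8.33 and 8.56 in SU-DHL4. Both SU-DHL6 arrays lay under their lower quartile, so TCF4 was at least 14.1-fold lower (-4.18 ± 0.13 as measured, adjusted p = 1.37e-07), and all 7 of its probe sets were called lower. The Hodgkin lines had 6.80 to 8.91 for MEF2C and 8.75 to 10.20 for TCF4, so SU-DHL6 was the lowest of the 6 lines in both.

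BANK1, a scaffold protein of B-cell receptor signalling, gave 5.00 and 5.17 on the SU-DHL6 arrays and 7.14 to 8.03 on the others (-2.60, adjusted p = 5.94e-05). LRIG1, a negative regulator of growth factor receptors, gave 5.02 and 5.39 against 7.27 to 9.17 (-3.08, adjusted p = 9.44e-07). SCRN1, or secernin, gave 6.29 and 6.38 against 8.86 to 10.26 (-3.27, adjusted p = 7.15e-06). These 3 genes were as low or lower in the Hodgkin lines, at line means of 4.57 to 4.65 for BANK1, 4.97 to 5.06 for LRIG1 and 6.11 to 6.19 for SCRN1.

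ISG15, an interferon-induced ubiquitin-like protein, gave 7.07 and 6.96 against 9.04 to 9.45 (-2.25, adjusted p = 3.27e-06). TFDP2, a partner of E2F factors, gave 7.50 and 7.51 against 9.35 to 10.21 (-2.35, adjusted p = 5.88e-06). MED21, a Mediator subunit, gave 6.03 and 6.87 against 8.38 to 8.75 (-2.09, adjusted p = 9.97e-05). In these 3 genes the 2 SU-DHL6 arrays lay below every array of the other B-cell lines and below each Hodgkin line mean. DSTN, an actin-depolymerising protein, gave 5.96 and 7.57 against 8.71 to 10.64 (-2.90, adjusted p = 0.000328). DNAJC15, a mitochondrial co-chaperone, gave 7.90 and 9.09 against 10.69 to 10.93 (-2.31, adjusted p = 0.000241). The 2 SU-DHL6 arrays were 1.61 and 1.19 apart in DSTN and DNAJC15, each time with replicate 2 nearer to the other lines.

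Of the 120 genes higher than in each B-cell line, 67 had no Hodgkin line mean past the midpoint between SU-DHL6 and the mean of the other B-cell lines, as for CUX2. Of the 125 lower genes, 40 had none. VIM was one of 19 higher genes for which all 3 Hodgkin lines were past that midpoint, and 34 lower genes were of the same kind. The same count was not made over all genes, and these genes were chosen for their distance from the B-cell lines. The counts therefore do not show how particular the genes are to SU-DHL6.

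The B-cell label was borne out by the defining markers. MS4A1, which encodes CD20, gave 12.78 and 11.56 on the SU-DHL6 arrays, 11.23 and 10.83 in Namalwa and 12.69 and 12.77 in SU-DHL4, and did not pass the test (0.29, adjusted p = 0.574). CD79A, which with CD79B carries the receptor's signal into the cell, gave 12.16 and 12.58 in SU-DHL6 (0.60, adjusted p = 0.0982). CD79B gave 10.59 and 10.95 (0.12, adjusted p = 0.69). PAX5, the commitment factor of the lineage, gave 10.04 and 9.84 in SU-DHL6 (-0.16, adjusted p = 0.411), BCL6 gave 10.82 and 11.03 (-0.12, adjusted p = 0.726) and the B-cell lectin CD22 gave 9.37 and 10.06 (0.10, adjusted p = 0.775). These 6 genes were bright on the SU-DHL6 arrays, and a p above the threshold does not show that the lines were equal.

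Over all genes, 1.93% were called higher and 2.35% lower, the shares to set beside each list count from here on. The median over all genes was 0.06, or 0.05 against Namalwa and 0.08 against SU-DHL4. Of 23 measured genes of B-cell identity, 1 was higher and 4 lower, with a list median of 0.00. The lower genes were BANK1, BLK, CR2 and IKZF1, of which IKZF1 lost its call in 3 of 14 alternatives (highest adjusted p = 0.108). BLK, a SRC-family kinase of B cells, gave 7.79 and 8.15 against 9.55 to 10.07 (-1.80, adjusted p = 3.34e-05), on 1 of its 2 probe sets. CR2, the complement receptor CD21, was lower through Namalwa alone, at 5.30 and 5.80 in SU-DHL6, 7.73 and 7.87 in Namalwa and 5.27 and 5.37 in SU-DHL4. Its difference was -1.01 against the mean (adjusted p = 0.00115) and 0.23 against SU-DHL4. CD24, a glycoprotein of immature and germinal-centre B cells, was higher than in SU-DHL4 but not than in Namalwa, at 11.30 and 11.87 against 7.93 and 8.57 and against 11.77 and 11.71 (1.59, adjusted p = 0.00186).

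Of 30 genes of B-cell receptor signalling, 2 were higher and 1 lower (median 0.01). RASGRP3, an activator of RAS downstream of the receptor, gave 8.97 and 9.34 against 7.63 to 8.02 (1.37, adjusted p = 0.000468). FCGR2B, the inhibitory Fc receptor, gave 6.25 and 6.64 against 7.38 to 8.51 (-1.54, adjusted p = 0.000162). LCK, a SRC-family kinase best known from T cells, gave 11.08 and 10.75, with 8.99 and 9.44 in Namalwa and 10.13 and 10.61 in SU-DHL4 (1.12, adjusted p = 0.00684). It was called on 1 of its 2 probe sets. LCK was the 1 of 29 measured T- and NK-cell markers that was called, its difference from SU-DHL4 alone was 0.54 (adjusted p = 0.205), and the T-cell genes CD3D, CD3E and CD2 were not called. CD3D gave 6.89 and 6.25 (0.06), CD3E gave 7.57 and 7.64 (-0.06) and CD2 gave 7.20 and 7.30 (0.06).

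Genes of the germinal centre moved both ways, with 3 of 19 higher and 4 lower. The list median of -0.03 lay between one of 0.30 against Namalwa and one of -0.52 against SU-DHL4. Besides STAG3, LMO2, a bridging transcription factor used as a germinal-centre marker, was higher, at 8.01 and 8.78 against 5.64 to 6.55 (2.45, adjusted p = 0.000109). MME, the surface peptidase CD10, was lower at 8.40 and 9.25 against 9.75 to 10.14 (-1.11, adjusted p = 0.00866), and its call was lost on SU-DHL6 replicate 2 alone (adjusted p = 0.0512). BACH2, a repressor that restrains plasma cell differentiation, gave 6.93 and 8.31, with 10.59 and 10.38 in Namalwa and 8.32 and 8.34 in SU-DHL4 (-1.79, adjusted p = 0.00236). It differed from SU-DHL4 alone by -0.71 (adjusted p = 0.207). CD38, an enzyme of germinal-centre and plasma cells, had a difference of 0.79 that passed the p threshold (0.00123) but not the fold minimum, with 10.48 and 10.83 on the SU-DHL6 arrays.

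Of 20 genes used to tell activated B-cell type lymphomas from the germinal-centre type, 3 were higher and 1 lower (median 0.11). IRF4, a factor required for plasma cells, gave 9.20 and 8.61, against 8.38 and 8.31 in Namalwa and 6.59 and 6.37 in SU-DHL4 (1.49, adjusted p = 0.000185), and it differed from Namalwa alone by 0.56 (adjusted p = 0.0632). Of its 3 probe sets, which were all higher, 1 was called. PIM1, a survival kinase, gave 9.14 and 9.28 against 7.33 to 8.19 (1.48, adjusted p = 3.06e-05). BATF, an AP-1 partner, gave 9.85 and 8.35 against 7.50 to 7.82 (1.46, adjusted p = 0.0112), a call that was lost in 2 of 14 alternatives (highest adjusted p = 0.0748). CFLAR, an inhibitor of caspase 8, gave 6.53 and 7.60 against 7.70 to 8.63 (-1.12, adjusted p = 0.00751), although 1 of its 11 probe sets was called and 6 were lower at all, and the call was lost in 2 of 14 alternatives (highest adjusted p = 0.302). The IRF4 values in SU-DHL6 remained under the Hodgkin line means of 11.11 to 11.48.

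Of 12 immunoglobulin genes, IGHM and IGKC were higher and VPREB1 lower. The brightest IGHM probe set gave 12.98 and 12.97 in SU-DHL6, 12.50 and 12.71 in Namalwa and 7.15 and 6.85 in SU-DHL4. Its difference was 3.17 against the mean (adjusted p = 1.99e-07), 0.37 against Namalwa and 5.97 against SU-DHL4. IGKC gave 10.52 and 10.43 in SU-DHL6, 8.38 and 8.16 in Namalwa and 9.84 and 10.28 in SU-DHL4 (1.31, adjusted p = 0.000191). The 5 IGHM probe sets disagreed, 2 being called higher and 2 lower, and the 8 IGKC probe sets did so too, with 2 higher and 1 lower. Direction is therefore uncertain for both genes, whose probe sets can read related immunoglobulin sequences. VPREB1, a surrogate light chain, was lower through Namalwa, at 5.41 and 5.43 against 8.44 and 8.56, and 5.34 and 5.78 in SU-DHL4 (-1.61, adjusted p = 4.11e-05). Of 29 plasma cell and secretory genes, 2 were higher and 2 lower (median 0.05), among them TNFRSF17, the receptor BCMA, at 9.81 and 10.01 against 7.66 to 9.12 (1.56, adjusted p = 9.65e-05).

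**Figure D3:**
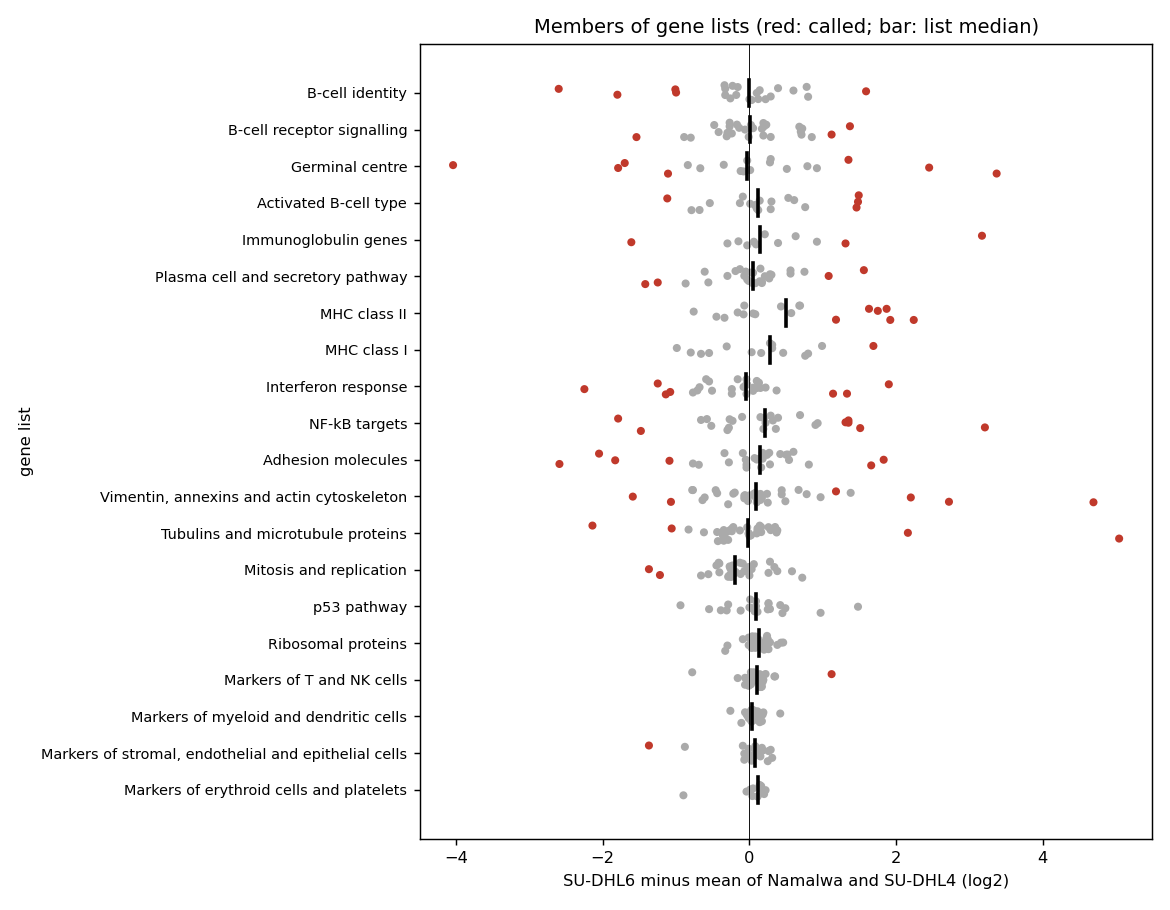
Log2 difference of SU-DHL6 from the mean of Namalwa and SU-DHL4 (horizontal axis) for the measured members of 20 gene lists (vertical axis); each point is a gene, red where called, and the black bar is the list median. The MHC class II list has the bar furthest from 0, at 0.50, and the 4 lists of markers of other cells hold 2 called genes in all.

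MHC class II genes, which present peptides to helper T cells, were called higher in SU-DHL6 in 6 of 18 and lower in 0, where 1.93% of all genes were called higher. The list median was 0.50, against 0.06 over all genes. Against Namalwa it was 0.63, and against SU-DHL4, the line of the same dataset, it was 0.14 (0.08 over all genes). At an unadjusted p under 0.05 and any size in limma, 9 were higher and 3 lower. HLA-DMB, a chaperone of peptide loading, gave 11.49 and 11.64 on the SU-DHL6 arrays, 8.79 and 8.93 in Namalwa and 9.80 and 9.78 in SU-DHL4 (2.24, adjusted p = 1e-05). Its partner HLA-DMA gave 11.06 and 11.17 against 9.12 to 9.88 (1.63, adjusted p = 7.68e-05). HLA-DPA1 gave 12.12 and 11.95 against 9.48 to 10.87 (1.87, adjusted p = 4.15e-06). Both SU-DHL6 arrays were above all others in these 3 genes.

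HLA-DQB1 gave 10.31 and 11.25 against 8.68 to 9.51 (1.75, adjusted p = 0.000552), HLA-DRB1 gave 12.35 and 12.55 against 11.15 to 11.43 (1.18, adjusted p = 0.000178), and HLA-DRB4 gave 10.32 and 10.67 against 7.38 to 9.71 (1.92, adjusted p = 0.000138). HLA-DRB4 was called on 1 of its 3 probe sets, whose differences ran from 0.10 to 1.92. HLA genes vary between alleles and resemble each other, so a probe set may read the alleles of the lines unequally, and this was not tested. CIITA, the coactivator that switches on the class, had a difference of 0.05 (adjusted p = 0.775) at 7.44 and 7.36, and CD74, the invariant chain, one of -0.08 (adjusted p = 0.658) at 12.61 and 12.47. The 6 called genes all lie on chromosome 6. The median of 15 MHC class I genes was -0.58 against Namalwa and 0.65 against SU-DHL4, and 1 was higher, HLA-E, at 10.52 and 11.03 against 8.37 to 9.68 (1.69, adjusted p = 0.000199). HLA-C lay between the lines, at 12 and 11.80 against 12.81 and 12.96 in Namalwa and 9.25 and 9.37 in SU-DHL4.

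Of 26 NF-kB targets, 5 were higher and 2 lower, where 1.93% and 2.35% of all genes were. The list median was 0.21, or -0.11 against Namalwa and 0.31 against SU-DHL4 (0.05 and 0.08 over all genes). LTB, the membrane anchor of lymphotoxin, gave 11.85 and 10.52 in SU-DHL6, 8.84 and 8.60 in Namalwa and 7.51 and 6.96 in SU-DHL4 (3.21 ± 0.30, 9.24-fold, adjusted p = 9.02e-05). TNF gave 8.65 and 7.82 against 6.51 to 6.89 (1.51, adjusted p = 0.000966), and LTA, the soluble lymphotoxin, gave 8.55 and 8.19 against 6.82 to 7.27 (1.31, adjusted p = 0.000109). The 3 cytokine genes are neighbours on chromosome 6, and replicate 1 was the higher SU-DHL6 array in each. NFKBIA, the feedback inhibitor, gave 10.28 and 10.61 against 8.82 to 9.44 (1.35, adjusted p = 0.000166). CD83, a surface protein of activated B cells, gave 10.22 and 10.89 against 8.57 to 9.72 (1.35, adjusted p = 0.000331). The other way went JUNB, an AP-1 subunit, at 6.65 and 7.25 against 8.02 to 8.69 (-1.48, adjusted p = 0.000654), and the chemokine CCL4, which gave 6.53 and 6.94 in SU-DHL6, 6.87 on both SU-DHL4 arrays and 10.11 and 10.25 in Namalwa. None of the 5 NF-kB subunits was called. NFKB1 gave 8.71 and 8.56 against 9.07 to 9.28 and passed the p threshold but not the fold minimum (-0.52, adjusted p = 0.00832). REL gave 8.63 and 8.35 (0.36, adjusted p = 0.232), RELA 9.34 and 9.44 (0.20, adjusted p = 0.152), RELB 8.47 and 8.52 (0.29, adjusted p = 0.146) and NFKB2 7.87 and 7.50 (0.19, adjusted p = 0.561).

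Interferon-response genes were called in both directions, with 3 of 29 higher and 4 lower (median -0.04, or -0.45 against Namalwa and 0.05 against SU-DHL4). MX2, an antiviral GTPase, gave 8.83 and 9.97 against 7.10 to 7.83 (1.90, adjusted p = 0.00081). IRF7, an activator of interferon genes, gave 7.63 and 8.27, with 7.20 and 7.27 in Namalwa and 6.38 and 5.63 in SU-DHL4 (1.33, adjusted p = 0.00174). MX1, the paralogue of MX2, was lower through Namalwa alone, at 6.30 and 6.25 against 9.19 and 8.92, and 6.08 and 5.89 in SU-DHL4. Its difference was -1.25 against the mean (adjusted p = 4.63e-05) and 0.29 against SU-DHL4. ISG15 was thus the 1 lower gene of the list beyond each line, and MX2 the 1 higher.

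In the cytoskeleton, 4 of 38 vimentin, annexin and actin genes were higher and 2 lower (median 0.09). MYO1E, a class I myosin, gave 10.23 and 9.88, against 6.12 and 6.46 in Namalwa and 8.37 and 8.41 in SU-DHL4 (2.72, adjusted p = 2.19e-06). LGALS3, or galectin-3, gave 8.58 and 8.66 against 6.36 to 6.51 (2.20, adjusted p = 1.8e-06). S100A4, a calcium-binding protein linked to cell motility, gave 6.18 and 6.17 against 6.94 to 8.99 (-1.59, adjusted p = 0.000758). Among the annexins, ANXA6 gave 8.55 and 9.64 against 9.40 to 10.92 (-1.07, adjusted p = 0.0194), a call lost in 5 of 14 alternatives (highest adjusted p = 0.111). ANXA1 (5.16 and 5.30), ANXA2 (7.93 and 8.26), ANXA4 (6.35 and 6.43) and ANXA5 (8.78 and 8.96) were not called.

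Tubulins gave 2 higher and 2 lower genes of 36 (median -0.02). TUBB2A gave 11.09 and 10.21 against 8.11 to 8.92 (2.16, adjusted p = 9.65e-05). TUBB6 was lower through SU-DHL4 alone, at 6.03 and 6.27, against 5.88 and 6.08 in Namalwa and 10.57 and 10.61 in SU-DHL4 (-2.14 against the mean, adjusted p = 2.4e-06). MAPRE2, a protein of microtubule ends, gave 8.48 and 9.02 against 9.01 to 10.59 (-1.06, adjusted p = 0.00115), on 1 of its 3 probe sets.

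Of 29 neural genes 3 were higher and 0 lower, where 1.93% and 2.35% of all genes were (median 0.07, or 0.06 over all genes). BASP1, a membrane protein of growing axons, gave 12.09 and 12.10 against 10.38 to 10.60 (1.59, adjusted p = 3.22e-06). UCHL1, a neuronal ubiquitin hydrolase, was lower than in Namalwa and higher than in SU-DHL4, at 10.83 and 10.48 against 11.30 and 11.86 and against 6.32 and 6.32. PCDH9, a protocadherin, gave 8.97 and 9.81 against 7.48 to 8.86 (1.31, adjusted p = 0.00294). Its 2 probe sets disagreed, at -0.31 and 1.31, and its call was lost against Namalwa alone (adjusted p = 0.0615). Of 31 homeobox and related factors, CUX2 and MEIS2 were higher and PITX1 lower (median -0.01). MEIS2 differed from Namalwa alone, at 8.57 and 8.74 against 6.02 and 5.51, with 8.42 and 8.86 in SU-DHL4, while PITX1 gave 7.25 and 7.52 against 8.52 to 10.04 (-1.91, adjusted p = 0.000178).

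Adhesion genes were called higher in 2 of 29 and lower in 4, where 1.93% and 2.35% of all genes were (median 0.15). ALCAM, an adhesion receptor of leukocytes, gave 9.42 and 10.50 against 7.97 to 8.19 (1.83, adjusted p = 0.000575). ITGB1, the beta-1 integrin chain, gave 5.82 and 7.15 against 7.96 to 10.35 (-2.59, adjusted p = 0.000253), but its 5 probe sets disagreed, with 1 called and differences up to 0.07. CD9, a tetraspanin, was lower through Namalwa alone, at 5.57 and 5.60 against 9.71 and 9.53, and 5.64 and 5.66 in SU-DHL4. CD99 was lower through SU-DHL4 alone, at 7.65 and 6.93 against 10.62 and 10.99, and 7.36 and 7.51 in Namalwa. Of 21 genes of chemokine receptors and homing, RGS1 and RGS2 were higher and GPR18 lower (median 0.00). GPR18, a G-protein-coupled receptor of lymphocytes, gave 6.19 and 8.13 against 8.98 to 9.78 (-2.19, adjusted p = 0.00399).

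The lists of growth and survival held 0 to 2 called genes each, where 1.93% of all genes were higher and 2.35% lower. Of 32 mitosis and replication genes, CCNA2 and CENPE were lower and 0 higher (median -0.20). CCNA2, cyclin A2, gave 9.14 and 9.01 against 10.10 to 10.77 (-1.37, adjusted p = 0.000704), and CENPE, a kinetochore motor, gave 7.24 and 7.35 against 8.43 to 8.56 (-1.22, adjusted p = 1.61e-05). Both lie on chromosome 4, as does GAR1, a nucleolar protein, which at 8.66 and 8.36 against 9.39 to 9.70 was the 1 called gene of 23 in the MYC and nucleolus list (-1.06, adjusted p = 0.000273). Of 18 BCL2 family genes, BID, a link from death receptors to mitochondria, was lower (-1.12, adjusted p = 0.00339) at 8.62 and 7.78 against 9.03 to 9.57. In limma 0 genes were called among 22 p53 pathway genes, 22 G1 regulators, 35 chromatin modifiers and 29 ribosomal protein genes. At an unadjusted p under 0.05 and any size, 4 and 3 p53 genes, 7 and 6 G1 regulators, 11 and 7 chromatin modifiers and 9 and 1 ribosomal genes were higher and lower. Of 21 TNF receptor family genes and ligands, TNFRSF17 was higher and TNFRSF21 lower (median 0.02). TNFRSF21, a death-domain receptor, gave 7.04 and 7.38, with 9.84 and 9.75 in Namalwa and 6.92 and 7.48 in SU-DHL4 (-1.29, adjusted p = 0.0189), and its call was lost in 5 of 14 alternatives (highest adjusted p = 0.0946). Of 29 glycolysis and hypoxia genes ALDOC, an aldolase, was higher (median 0.05). ALDOC gave 9.05 and 10.59, with 9.33 on both Namalwa arrays and 7.73 and 7.60 in SU-DHL4 (1.33, adjusted p = 0.0325), with SU-DHL6 replicate 1 below both Namalwa arrays, and the call was lost in 8 of 14 alternatives (highest adjusted p = 0.225). Cholesterol synthesis had 2 of 18 higher and 0 lower (median 0.29). TM7SF2, a sterol reductase, gave 9.05 and 9.27 against 7.77 to 8.12 (1.23, adjusted p = 2.82e-05) and was beyond each line. EBP, a sterol isomerase, gave 10.74 and 10.55, with 10.16 and 10.44 in Namalwa and 8.16 and 8.0 in SU-DHL4 (1.46, adjusted p = 2.41e-05), and differed from Namalwa alone by 0.35 (adjusted p = 0.0884). Its 3 probe sets ran from -0.49 to 1.46, and 2 were called.

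Among the markers of other cells, LCK and DCN were called. Of 25 myeloid and 15 erythroid markers 0 were called, and of 26 stromal, endothelial and epithelial markers DCN was, at 8.02 and 8.17, with 8.06 and 7.94 in Namalwa and 10.96 and 10.91 in SU-DHL4 (-1.37, adjusted p = 7.15e-06). At an unadjusted p under 0.05 in limma, 1 myeloid and 1 erythroid marker was higher and as many were lower. Mean log2 signals ran from 6.57 to 6.70 for T and NK markers, 5.81 to 5.95 for myeloid, 6.21 to 6.46 for stromal and 6.98 to 7.15 for erythroid markers. Each array read RNA of a whole culture of a single line. A few cells of another type and low expression in all cells cannot be told apart there.

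Called genes were unevenly spread over the chromosomes. Of the 125 genes lower than in each line, 26 (20.8%) lay on chromosome 4. It holds 453 of the measured genes, so that 5.74% of its genes were called lower, against 1.04% of all genes. Chromosome 8 followed, with 15 of 434 genes (3.46%). Of the 120 genes higher than in each line, 29 (24.2%) lay on chromosome 6, or 4.31% of its 673 genes. By the same call, 2 of 88 genes lower in SU-DHL4 than in both other lines lay on chromosome 4 and 2 of 104 higher genes on chromosome 6. For Namalwa the counts were 2 of 103 and 11 of 134. Chromosomes 4 and 6 were chosen because they led in SU-DHL6, and other chromosomes led in the other lines. For SU-DHL4, chromosome 3 held 17 of 104 higher genes and chromosome 1 held 18 of 88 lower genes. For Namalwa, chromosome 1 held 22 of 134 higher genes and chromosome 14 held 14 of 103 lower genes. Chromosomes 1, 3 and 14 hold 1200, 655 and 381 of the measured genes. The pattern in SU-DHL6 was noticed in the data and then counted, so it carries no test.

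On chromosome 6, all genes higher than in each line but SGK1 (9.20 and 9.08 against 6.13 to 7.65) lay in the stretch from GMDS to TMEM14A, which includes TUBB2B, TUBB2A, LTB, TNF, LTA, PIM1 and the HLA genes above. In this stretch 76.7% of 232 genes above the median signal were higher than in each other line, against 32.1% of 140 such genes on the rest of the chromosome and 41.6% of 7007 over all chromosomes. The ends of the stretch were set by the called genes, which is part of this contrast. The median difference was 0.47 inside and 0.00 outside, and inside it was 0.36 on SU-DHL6 replicate 1 and 0.57 on replicate 2. MAPK13, a p38 kinase, gave 8.37 and 9.90 (2.43, adjusted p = 0.000676), CYP39A1, an oxysterol hydroxylase, gave 6.60 and 7.10 (2.41, adjusted p = 2.81e-06) and SERPINB1, an inhibitor of neutrophil proteases, gave 8.87 and 10.10 (2.34, adjusted p = 0.000508). For CYP39A1 the other B-cell arrays lay under their lower quartile, and with these set to that quartile the difference was 1.17 (2.25-fold). Without SU-DHL6 replicate 1 the chromosome 6 count was 56 of 205, without replicate 2 it was 22 of 112, and with the 6 B-cell arrays only it was 19 of 85.

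On chromosome 4, the genes lower than in each line ran from ATP8A1 to ACSL1, with BANK1, CENPE and CCNA2 among them. Here 65.9% of 123 genes above the median signal were lower than in each other line, against 29.4% of 68 on the rest of the chromosome and 29.9% over all chromosomes, with the ends set in the same way. The median difference was -0.48 inside (-0.50 on replicate 1 and -0.44 on replicate 2) and 0.03 outside. EIF4E, the cap-binding protein of translation, gave 9.16 and 8.51 (-1.43, adjusted p = 0.000202), LEF1, a Wnt pathway transcription factor, gave 9.11 and 9.30 (-1.28, adjusted p = 0.00101) and DCK, which activates nucleoside drugs, gave 8.14 and 7.85 (-1.41, adjusted p = 0.000119). MAD2L1, a spindle checkpoint protein, gave 9.12 and 9.01 (-1.11, adjusted p = 0.000253). The count was 25 without SU-DHL6 replicate 1, 30 without replicate 2 and 17 with the 6 B-cell arrays only. DNA copy number was not measured on these arrays, and its part in these stretches was not tested.

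**Figure D4:**
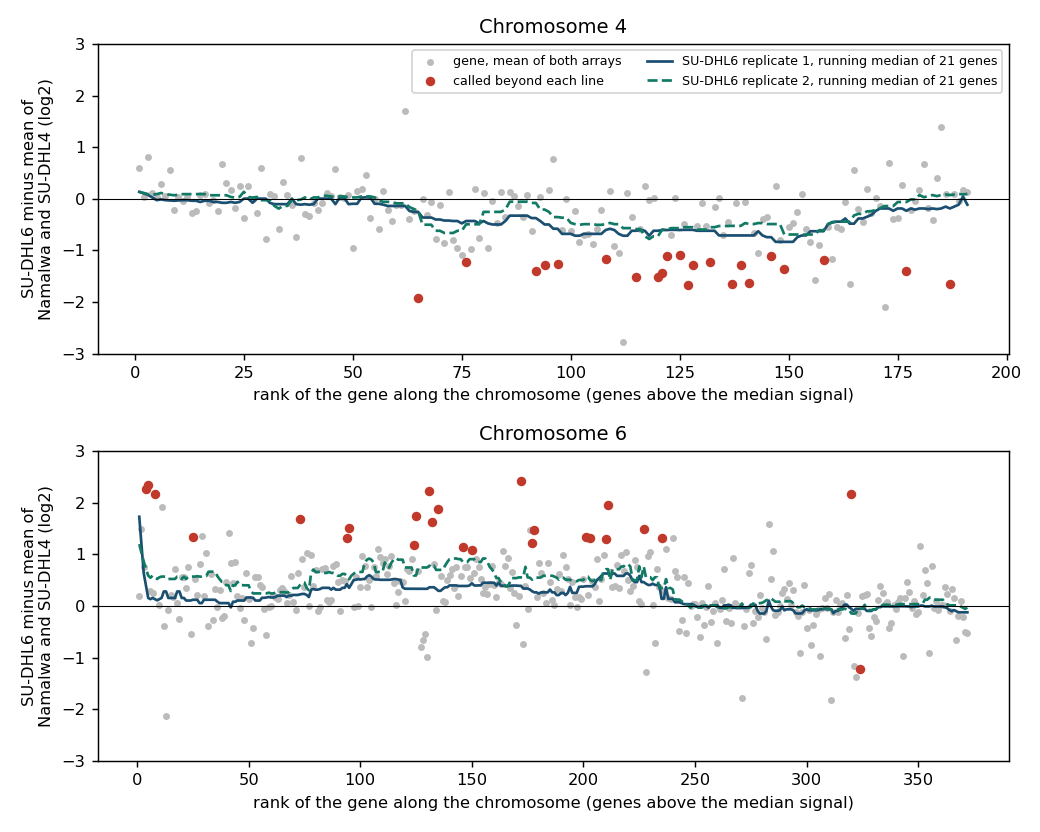
Log2 difference of SU-DHL6 from the mean of Namalwa and SU-DHL4 (vertical axis, cut at 3 in size) by rank of the gene along chromosomes 4 and 6 (horizontal axis), for genes above the median signal; red points were called beyond each line, and the lines are running medians of 21 genes for each SU-DHL6 array. Both arrays run below 0 over much of chromosome 4 and above 0 over the first part of chromosome 6, and return to about 0 on the rest.

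The SU-DHL6 arrays were over 1 apart in 225 of 11963 genes (1.88%), and in 58 of the 512 called genes (11.3%). RGS1, a regulator of chemokine receptor signalling, had the largest gap, at 6.25 on replicate 1 and 9.87 on replicate 2, against 4.57 to 6.03 on the other arrays (2.64, adjusted p = 0.0361), on 1 of its 3 probe sets. Its call was lost in 7 of 14 alternatives (highest adjusted p = 0.177), 1 of them without SU-DHL6 replicate 2. EGR1, an immediate-early transcription factor, gave 7.63 and 9.72 against 6.45 to 6.73 (2.05, adjusted p = 0.00932, or 0.0664 with the 6 B-cell arrays only), while KLF10, a further early response gene, gave 9.0 and 9.49 against 7.09 to 7.53 (1.94, adjusted p = 3.3e-05). EGR1 was called on 1 of its 2 probe sets, the other being at 0.37. Of 23 immediate-early and heat-shock genes, 5 were over 1 higher on replicate 2, among them JUND (8.68 and 10.47) and FOS (6.11 and 7.85). The p53 pathway showed the same side, with 5 of 22 genes over 1 higher on replicate 2 and 0 over 1 lower. CDKN1A, the cell cycle inhibitor p21, gave 8.93 and 11.66, and GADD45A, a stress-induced growth arrest gene, gave 6.62 and 10.22, and neither was called (adjusted p = 0.12 and 0.442). Other lists had such gaps too. Over 1 higher on replicate 2 were 5 of 29 glycolysis and hypoxia genes and 4 of 21 chemokine receptor and homing genes, with 0 over 1 lower. Activated B-cell type genes went the other way, with 1 higher and 3 lower. The median gap was largest in the germinal-centre list, at 0.49, against 0.39 for p53 and 0.34 for immediate-early and heat-shock genes. Whether these gaps arose in the cultures or in the RNA was not tested. On replicates 1 and 2, signal at the 3' end minus that at the 5' end was 0.02 and 0.47 for GAPDH and -0.53 and -0.15 for ACTB. For GAPDH, the 3' end minus the middle was -0.14 and -0.16.

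**Figure D5:**
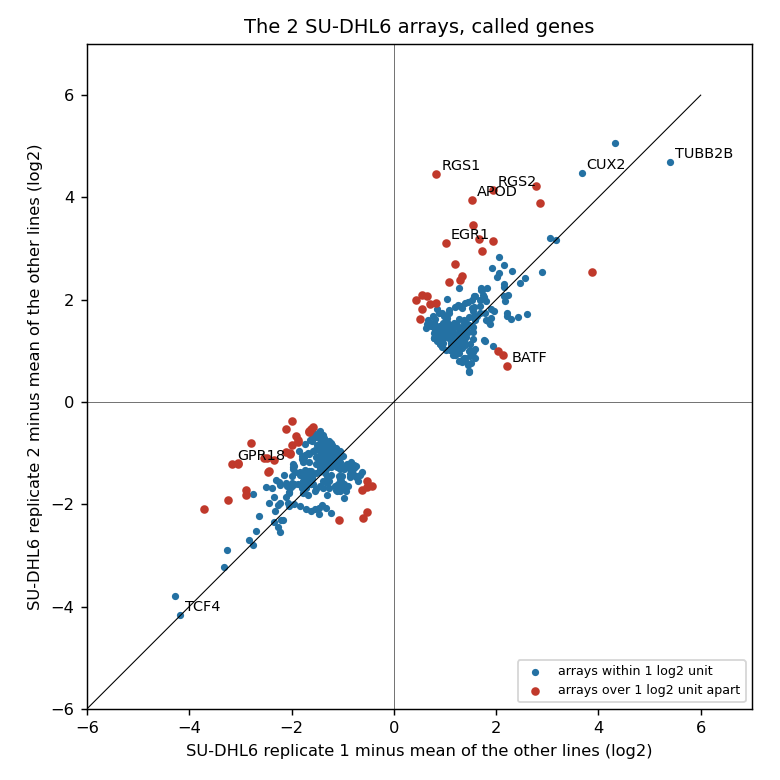
Log2 difference from the mean of Namalwa and SU-DHL4 for SU-DHL6 replicate 1 (horizontal axis) and replicate 2 (vertical axis) over the 512 called genes; red genes have arrays over 1 log2 unit apart and the line marks equal values. RGS1, APOD, RGS2 and EGR1 lie above the line and BATF below it, while TUBB2B, CUX2 and TCF4 lie near it with both arrays far from 0.

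When the line was taken as the replicate, limma on the 6 line means called 2 genes higher, CUX2 and CHI3L2 (adjusted p = 0.0414 each), and 0 lower. At an unadjusted p under 0.05 and the same fold minimum, 112 genes were higher and 124 lower. That fit has 3 residual degrees of freedom and draws its spread from the difference between Namalwa and SU-DHL4 and from the Hodgkin lines.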

How the data were processed

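Biotin-labelled RNA of 6 untreated lymphoma lines, 2 arrays a line, was hybridised to 12 HG-U133A arrays, per the labels' protocols. The authors deposited log2 values made by RMA, with R 2.10.1 named in the submitters' processing notes. The sources used here do not give the RMA settings, and the authors' table of Hodgkin against B-cell lines was not used here. Samples were grouped by the line in their titles. Of the probe sets, 68 controls were left out and 22215 tested. The platform annotation gave 1 symbol for 19065, several for 1043 and none for 2107, and 19053 matched a RefSeq table of GRCh38.p14, where 0 symbols changed. That table gave gene order and promoter sequences, and the array values have no genome build of their own.

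In R 4.3.3 with limma 3.58.1, all 12 arrays entered 1 fit with a coefficient per line (6 residual degrees of freedom), two-sided. SU-DHL6 was compared with the mean of the Namalwa and SU-DHL4 line means, and Benjamini-Hochberg adjustment ran over the 22215 probe sets. The call beyond each line took the larger p of both single comparisons. The test was checked on simulated data. The number of arrays limits precision, and signals under the lower quartile (5.64 to 5.75) cannot be told from background. Alternatives were other arrays, weights, filters, a floor, centring, probe set averaging, single reference lines, line means, a replicate block and leaving out each array.

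Genes named were TUBB2B, VIM and CUX2, the 10 furthest above and below the nearer line with both arrays beyond all others, up to 4 called genes per list (where fewer than 2 were called, the 2 of smallest p) and B-cell markers. Further genes of these lists and of chromosomes 4 and 6, and those with large gaps between the SU-DHL6 arrays, were chosen after their values were seen. Members and lists were chosen with earlier results of these data known.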

Additional observations from a re-analysis of the deposited data

How the results depend on the processing

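The counts of 231 higher and 281 lower genes, and of 120 and 125 beyond each line, stayed within 1.5 times under array weights, an intensity trend, a filter or floor on dim values, centring, and averaging of probe sets, and the first 2 counts also against single reference lines. With the 6 B-cell arrays only, 80 genes were lower than each line. With no fold minimum the counts were 1220 higher and 1116 lower, and 368 and 337 beyond each line. With line means they were 2 and 0, against 112 and 124 at an unadjusted p under 0.05 in limma, where fewer residual degrees of freedom remain. Leaving out 1 array gave 222 to 341 higher and 252 to 368 lower genes, and 100 to 205 and 94 to 186 beyond each line, the 205 without SU-DHL6 replicate 1. A lone array is then assumed to vary like the other lines. The replicate block gave 232 and 282, and 121 and 125 beyond each line. Duplicate differences correlated between lines at -0.44 to 0.30, with 4 of 15 over 0.1. These values cannot show whether the replicate numbers pair the samples. Against SU-DHL4 alone, differences turned to 0.23 for CR2, 0.08 for CREB3L2 (5.88 and 5.94 on the SU-DHL6 arrays), 0.29 for MX1, 0.01 for TNFRSF21 and 0.04 for FCER1G (6.49 and 6.47). Against Namalwa alone they turned to -0.16 for CD24, -0.98 for HLA-C, 0.17 for TUBB6, -0.93 for UCHL1, 0.09 for DCN and 0.21 for THY1 (7.20 and 7.17), and with the floor MDM4 (4.49 and 4.39) came to 0.00. Of the 512 called genes, 442 kept an adjusted p below 0.05 in the 14 alternatives other than single reference lines, line means and no fold minimum. The genes in the text that did not were IKZF1, ANXA6, CFLAR, BATF, ALDOC, IGKC (0.164 by the mean of its probe sets), MME, RGS1, TNFRSF21, EGR1 and DDAH1 (0.068 with the floor). The alternatives for chromosomes 4 and 6 were chosen after seeing the data. The cause of these changes was not tested.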

Other observations

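Running windows of 20 neighbouring genes above the median signal gave 6564 medians of the SU-DHL6 difference, from -0.81 to 0.77, with the 5th to 95th percentile at -0.31 to 0.34. Besides the stretches on chromosomes 4 and 6, low windows lay on chromosome 13 from DNAJC15 to INTS6 (median -0.67, with 18 of 20 genes below each other line) and on chromosome 18 from METTL4 to CEP76 (-0.62, 16 of 20). A further low window lay on chromosome 8 from SCARA3 to MAK16 (-0.74, 14 of 20). The chromosome 13 window holds RB1, the retinoblastoma gene, at 7.54 and 8.03 on the SU-DHL6 arrays. TUBB6, lower through SU-DHL4 alone, lies in the chromosome 18 window. High windows lay on chromosome 11 from RRP8 to SWAP70 (0.65, 17 of 20 above each line) and on chromosome 14 from EAPP to DMAC2L (0.57, 17 of 20), the latter with NFKBIA. Medians against Namalwa and SU-DHL4 were -0.45 and -1.04 on chromosome 8, -0.85 and -0.54 on chromosome 13 and -0.34 and -0.74 on chromosome 18. In the high windows they were 0.66 and 0.64 on chromosome 11 and 0.88 and 0.37 on chromosome 14. These windows were picked by their medians, so the values are a description without a test.

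Of genes over 1 apart between the SU-DHL6 arrays, several were higher on replicate 1. SRSF1, a splicing factor, gave 11.55 and 9.51, BIK, a pro-apoptotic BCL2 relative, gave 9.98 and 7.93, and EIF5A, a translation factor, gave 11.53 and 9.81. None of the 3 was called (adjusted p = 0.0743, 0.9 and 0.0604).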
